A study of Homo sapiens with 12 samples.

Results

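The genes examined were 10 human Jumonji-domain genes: KDM2A, KDM2B, KDM3A, KDM3B, KDM4A, KDM4B, KDM4C, KDM5B, KDM6B and JMJD6. They were taken as every probe annotated to these symbols or to their older JMJD or JARID names, which gave 10 of the 20046 genes with a named probe. The 10 genes had 14 probes, of which 11 passed the filter for detection on at least 2 of the 12 arrays. The 3 probes left out were further probes of KDM2B, KDM4B and JMJD6, so each gene kept at least 1 probe and only KDM2B kept 2. The cells were HBEC, human bronchial epithelial cells, in lines stably expressing the WT, L858R or E746-E750 form of the growth factor receptor EGFR. Every line, the WT line included, therefore carried an introduced EGFR, and all were grown in keratinocyte serum-free medium with added EGF and bovine pituitary extract. Each line was kept aerobic at 21% O2 or hypoxic at 0.1% O2 for 24 h, with 2 arrays for each of the 6 groups. Separate cultures are not named in the labels, so the p-values rest on a spread between arrays that may be purely technical.

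Jumonji C (JmjC) demethylases remove methyl groups from histone lysines by oxidation, using molecular oxygen, iron and 2-oxoglutarate, so oxygen is a substrate of the reaction itself. The KDM3 enzymes act on H3K9 carrying 1 or 2 methyl groups, the KDM4 enzymes on trimethylated H3K9 and H3K36, KDM2 enzymes on H3K36, KDM5 enzymes on H3K4 and KDM6 enzymes on H3K27. JMJD6 belongs to the same oxygenase family and hydroxylates lysines, among them lysines of splicing factors. KDM3A and KDM4B are known targets of the hypoxia-inducible factor HIF, which binds DNA at a short core written ACGTG or GCGTG. Arrays measure transcripts only, so neither enzyme activity nor histone marks were measured.

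RefSeq promoters (GRCh38.p14, 250 bases before to 50 bases after a start site) were available for 9 of the 10 genes, in 15 windows, and were searched on both strands for the 5-letter cores ACGTG and GCGTG. At least 1 core lay in 12 of the 15 windows and in 48.4% of all 35116 promoters in the table. The 15 windows are not independent, as several belong to KDM2B and the overlapping KDM3A windows hold the same site. By gene, 8 of the 9 had a core in at least 1 window. Genes with several windows have more chances of a core, so this count cannot be set against the share of promoters. By core, ACGTG lay in 3 of the 15 windows and in 21.4% of all promoters, and GCGTG in 11 of the 15 windows and in 36.5% of all promoters. The windows of these genes had a GC content of 53% to 84%, so cores rich in G and C are not independent of their composition. A match is a description of the letters and not a shown binding site. The promoters below are shown because they belong to the gene with the largest change (KDM3A), the gene whose change differed between lines (KDM5B), the gene with no match (KDM3B) and the gene with the most matches in 1 window counted over both strands (KDM4C). Capitals mark the cores, and where ACGTG on both strands overlaps, the capitals run over the 6-letter palindrome CACGTG. All are written 5′ to 3′ on the strand of the gene.
KDM3A: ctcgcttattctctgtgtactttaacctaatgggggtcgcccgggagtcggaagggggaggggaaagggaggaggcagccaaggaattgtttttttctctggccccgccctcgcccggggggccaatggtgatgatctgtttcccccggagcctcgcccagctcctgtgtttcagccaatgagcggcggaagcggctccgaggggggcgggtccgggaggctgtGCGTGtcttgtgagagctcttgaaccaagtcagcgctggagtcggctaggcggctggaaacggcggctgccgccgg
KDM5B: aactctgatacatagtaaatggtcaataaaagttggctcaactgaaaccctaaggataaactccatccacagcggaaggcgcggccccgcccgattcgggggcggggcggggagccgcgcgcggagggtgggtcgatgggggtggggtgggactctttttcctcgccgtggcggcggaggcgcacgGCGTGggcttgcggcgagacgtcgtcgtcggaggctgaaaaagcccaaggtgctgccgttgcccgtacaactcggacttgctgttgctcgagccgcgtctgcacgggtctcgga
KDM3B: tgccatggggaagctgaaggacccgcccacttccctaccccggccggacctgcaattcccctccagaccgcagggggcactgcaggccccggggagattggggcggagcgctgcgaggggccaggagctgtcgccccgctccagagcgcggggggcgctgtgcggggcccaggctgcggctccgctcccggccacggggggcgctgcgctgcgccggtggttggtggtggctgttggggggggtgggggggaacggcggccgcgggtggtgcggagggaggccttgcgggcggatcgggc
KDM4C: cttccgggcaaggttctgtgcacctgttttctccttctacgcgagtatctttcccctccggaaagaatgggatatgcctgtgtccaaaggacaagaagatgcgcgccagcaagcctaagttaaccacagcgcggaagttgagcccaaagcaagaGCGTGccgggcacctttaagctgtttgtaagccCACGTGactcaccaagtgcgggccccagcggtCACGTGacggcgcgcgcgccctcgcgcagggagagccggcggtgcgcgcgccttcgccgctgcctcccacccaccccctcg
The KDM3A window is chr2:86441121-86441420 on the plus strand, and its single GCGTG starts 26 bases before the start site; the second, overlapping KDM3A window holds the same site. The KDM5B window, chr1:202808372-202808671 on the minus strand, has 1 GCGTG that starts 64 bases before the start site. The KDM3B window is chr5:138352435-138352734 on the plus strand. The KDM4C window, chr9:6757723-6758022 on the plus strand, counts 5 matches, of which 4 come from the 2 palindromes, so that it holds 3 separate sites. Windows of KDM4B, KDM2A and KDM2B also hold 3 separate sites.

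Before the values of single genes, 1 array stood apart. The second L858R hypoxic array had 14159 detected probes, against 16485 to 18229 on the other 11, and its upper quartile of raw intensity was 128, against 157 to 207. The Pearson correlation over kept probes between the 2 arrays of a group was 0.841 for L858R hypoxic and 0.982 to 0.997 for the other 5 groups. For 3213 genes with several kept probes, the difference between the 2 brightest probes was set against its mean over the aerobic arrays. This pair had moved apart by over 1 on the log2 scale in 45.8% of genes on the second L858R hypoxic array and 18.1% on the first. The shares were 20.2% and 27.3% on the E746-E750 hypoxic arrays and 2.68% and 3.08% on the WT hypoxic arrays. On the aerobic arrays it was at most 0.0311%, but these arrays set the reference, so their low share is no independent baseline. Because only KDM2B kept a second probe, this check could not be made for the other 9 genes, and the part of such probe-specific shifts in their changes was not tested. Of the airway basal markers with a probe, 5 of 6 (KRT5, KRT14, KRT15, ITGA6 and ITGB4) were detected on all 12 arrays, and no alveolar, ciliated or secretory, endothelial or fibroblast marker was. Of the 5 leukocyte markers, CD14 and CD68 were detected on all 12 arrays and PTPRC and CD3E on none. In bulk RNA, fewer cells expressing a gene and less RNA per cell cannot be told apart.

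Values below are log2 intensities after background correction and quantile normalization, and a change is the hypoxic minus the aerobic mean of 2 arrays, in log2 units with its standard error. Levels are compared between arrays for 1 probe and never between probes. A change was called when the limma test, adjusted by Benjamini-Hochberg over all 16023 kept probes with 1 gene, gave p under 0.05. Under hypoxia, KDM3A and JMJD6 rose in all 3 lines, while KDM2A, KDM3B and KDM5B passed the test in both lines with mutant EGFR but not in the WT line. No member fell by this test. In the WT line 2 of the 11 probes were called, both up, where 4.98% of all kept probes were called up and 11.7% in either direction. In L858R 5 of 11 were called up against 14.3% of all probes, and in E746-E750 5 of 11 against 14.7%. The median change of the 11 probes was 0.36 in WT, 0.61 in L858R and 0.76 in E746-E750, against -0.02, 0.03 and 0.06 over all kept probes. Fitted over all lines, 6 of 11 were called up, KDM4B being added, against 17.6% of all probes. The 3 comparisons within a line share no arrays, but they share 1 estimate of the spread, to which the L858R hypoxic arrays add much. With either one of these arrays left out, the other adds nothing to the spread of the fit by group. Comparisons that do not use the L858R hypoxic group then give the same values whichever is left out, so these are 1 check and not 2. Without either one of the L858R hypoxic arrays, 7 of 11 members were called in WT, where 37.3% of all probes were called in either direction, and on the 8 aerobic and WT hypoxic arrays alone 8 of 11 were called against 45% of all probes. Leaving out the second L858R hypoxic array also gave 8 of 11 against 45.7% in L858R, 7 of 11 against 58.4% in E746-E750 and 7 of 11 against 47.6% over all lines, so that more members were called but so were more probes of any kind.

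**Figure D1:**
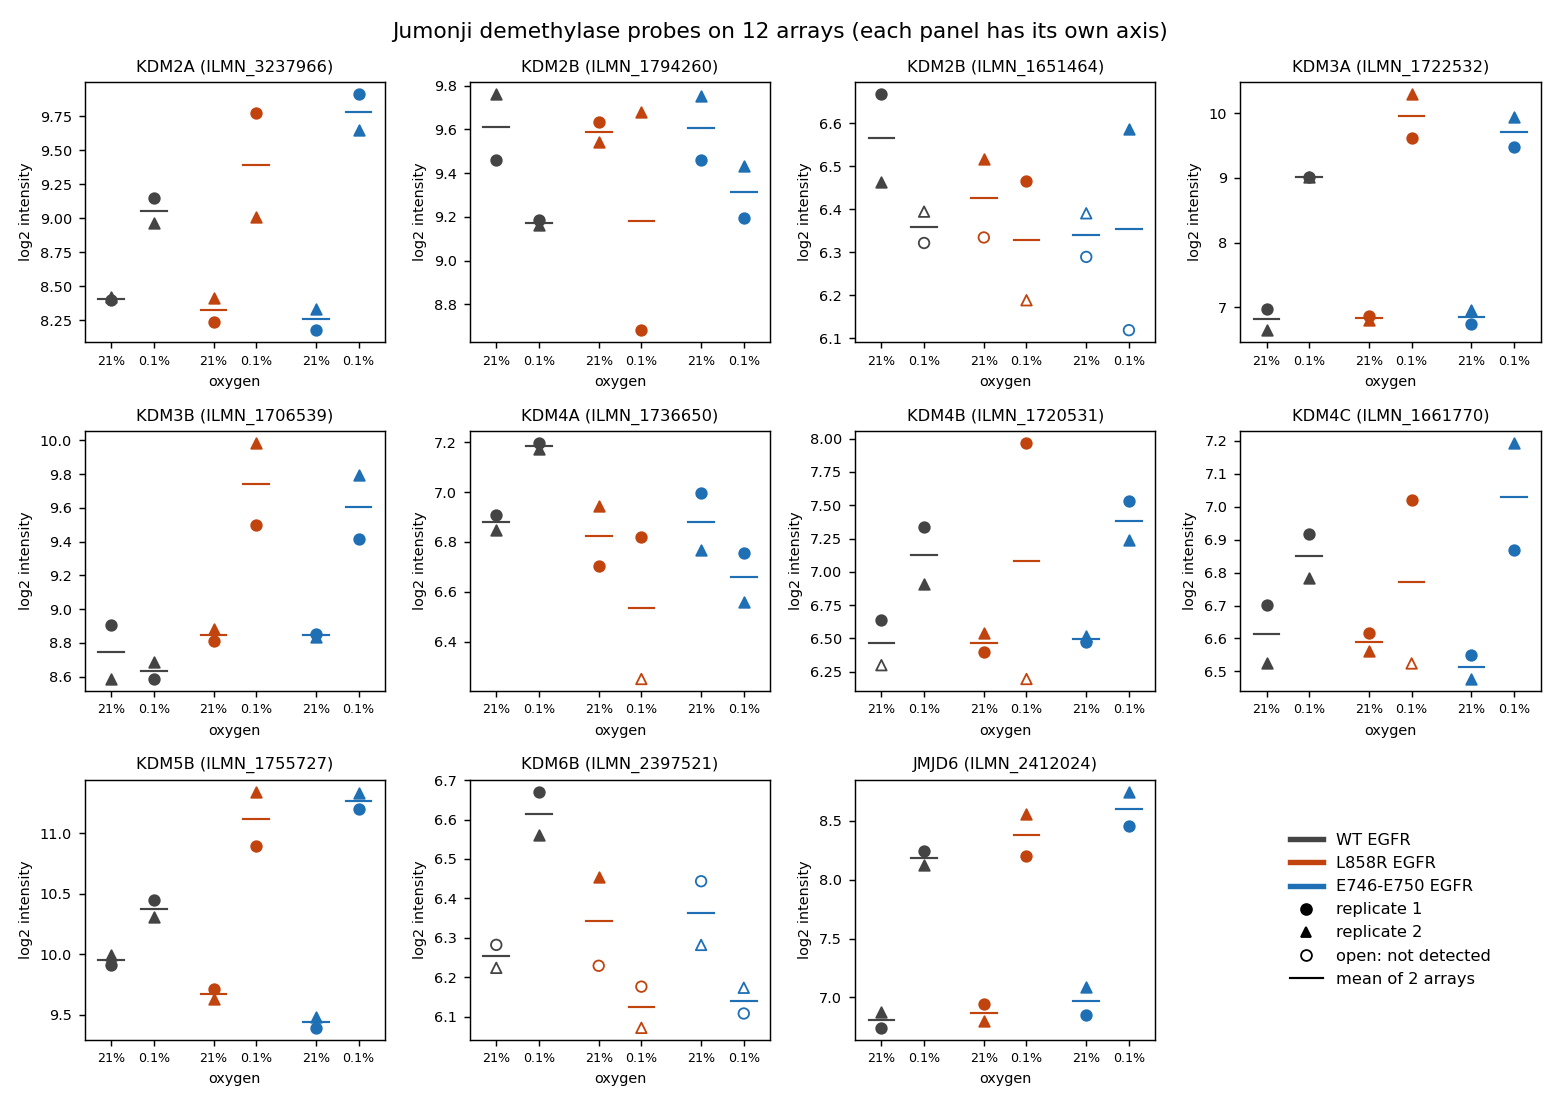
Log2 intensity of the 11 kept probes of the 10 genes on 12 arrays, 1 panel a probe with its own axis, by EGFR form (colour) and oxygen (21% or 0.1%); circles and triangles are replicates 1 and 2, open symbols are arrays on which the probe was not detected, and lines are means of 2 arrays. KDM3A lies at 6.65 to 6.98 on the 6 aerobic arrays and at 9.01 to 10.29 on the 6 hypoxic arrays, while KDM6B and the second KDM2B probe stay near the detection level.

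KDM3A, an H3K9 demethylase, showed the largest change of the 10 genes in every line. In WT cells its probe read 6.98 and 6.65 on the aerobic arrays and 9.01 and 9.02 on the hypoxic arrays. The L858R values were 6.87 and 6.81 aerobic and 9.62 and 10.29 hypoxic. In E746-E750 cells it read 6.74 and 6.96 aerobic and 9.47 and 9.93 hypoxic. All 6 hypoxic arrays thus lay above all 6 aerobic arrays, as for 9.19% of all kept probes. All 4 mutant hypoxic arrays lay above both WT hypoxic arrays. Such a gap from WT under hypoxia, in either direction, was shown by 51.7% of all kept probes for L858R and 71.7% for E746-E750. The changes were 2.20 ± 0.245 in WT (a 4.6-fold rise, limma adjusted p = 0.000937), 3.12 ± 0.245 in L858R (8.67-fold, adjusted p = 7.06e-05) and 2.85 ± 0.245 in E746-E750 (7.23-fold, adjusted p = 8.72e-05). The L858R change was 2.78 without the second L858R hypoxic array. The larger change in the mutant lines did not pass the test of the difference: the response exceeded that of WT by 0.91 in L858R (95% interval 0.12 to 1.70, limma adjusted p = 0.143), and by 0.65 in E746-E750 (-0.14 to 1.44, adjusted p = 0.312). Both differences use the same WT arrays, and that of E746-E750 was called without either one of the L858R hypoxic arrays (adjusted p = 0.0417). The L858R difference was 0.57 without the second L858R hypoxic array (adjusted p = 0.117) and 1.25, called, without the first (adjusted p = 0.00144). KDM3A stood on the list of 10 HIF targets used to check the exposure. Of the 10 kept probes of that list 9 were called up in WT, 10 in L858R and 9 in E746-E750. Their median changes were 2.11, 2.57 and 2.72. Of all kept probes 4.98%, 14.3% and 14.7% were called up in these lines.

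JMJD6, the lysyl hydroxylase of the set, rose in each line. Its kept probe read 6.74 and 6.87 in aerobic WT cells and 8.24 and 8.12 in hypoxic WT cells. The L858R values were 6.94 and 6.80 aerobic and 8.20 and 8.55 hypoxic. The E746-E750 values were 6.85 and 7.09 aerobic and 8.45 and 8.75 hypoxic. Hypoxic and aerobic arrays did not overlap, the lowest hypoxic value being 8.12 and the highest aerobic value 7.09. Every hypoxic array lay above every aerobic array for 9.19% of all kept probes. The changes were 1.37 ± 0.173 in WT (limma adjusted p = 0.00174), 1.50 ± 0.173 in L858R (adjusted p = 0.000451) and 1.63 ± 0.173 in E746-E750 (adjusted p = 0.000269), or 2.59-, 2.84- and 3.09-fold. The responses of the mutant lines differed from that of WT by 0.13 (95% interval -0.43 to 0.69) and 0.25 (-0.31 to 0.81), neither called, so a difference of up to 0.81 is compatible with these arrays. The L858R change was 1.33 without the second L858R hypoxic array. A second JMJD6 probe was detected on no array.

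KDM5B, which removes methyl groups from H3K4, was the 1 member whose response to hypoxia differed between lines by the test of the difference. In WT cells it read 9.91 and 9.99 aerobic and 10.45 and 10.31 hypoxic. L858R cells went from 9.71 and 9.63 to 10.89 and 11.34. E746-E750 cells went from 9.39 and 9.48 to 11.20 and 11.33. The order of the lines turned over with oxygen: the WT arrays were the highest of the aerobic arrays and the lowest of the hypoxic arrays, with no overlap between WT and either mutant line at either oxygen level. With 2 arrays a group, such a gap is common: at 21% O2, 54% of all kept probes showed one between L858R and WT and 58% between E746-E750 and WT, and at 0.1% O2 the shares were 51.7% and 71.7%. The change was 0.43 ± 0.161 in WT (1.34-fold, limma adjusted p = 0.139), 1.45 ± 0.161 in L858R (2.73-fold, adjusted p = 0.000387) and 1.83 ± 0.161 in E746-E750 (3.55-fold, adjusted p = 0.000102). The WT value of 0.43 was called on the 8 aerobic and WT hypoxic arrays alone (adjusted p = 0.00336) and without either one of the L858R hypoxic arrays (adjusted p = 0.00789), so the WT line is not shown to lack the change.

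The response of KDM5B was larger than in WT by 1.02 ± 0.228 in L858R (95% interval 0.50 to 1.54, limma adjusted p = 0.0277) and by 1.40 ± 0.228 in E746-E750 (0.88 to 1.92, adjusted p = 0.00715). KDM5B was the 1 probe of 11 called in each of these comparisons, where 9.5% and 9.7% of all kept probes were called in either direction. With the second L858R hypoxic array left out, 5 and 6 of 11 members were called, against 28.4% and 39.4% of all probes. Both comparisons share the WT arrays and are not independent of each other. The difference had an aerobic and a hypoxic share: L858R minus WT was -0.28 at 21% and 0.74 at 0.1% O2, and E746-E750 minus WT was -0.51 and 0.89. For E746-E750 the call was kept in all 25 alternatives, with adjusted p between 2.37e-05 and 0.0431. For L858R it was lost in 11 of 25, with values of 0.80 to 1.24 and adjusted p between 9.02e-05 and 0.17. Those 11 were the authors' processed values, the arrays compared alone, array weights, and leaving out any 1 of the 6 aerobic or the 2 WT hypoxic arrays. It was 0.80 without the second L858R hypoxic array (adjusted p = 0.00466). The mutant hypoxic groups are also those in which probes of the same gene moved apart most, and KDM5B had 1 probe, so a check on a second KDM5B probe could not be made.

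**Figure D2:**
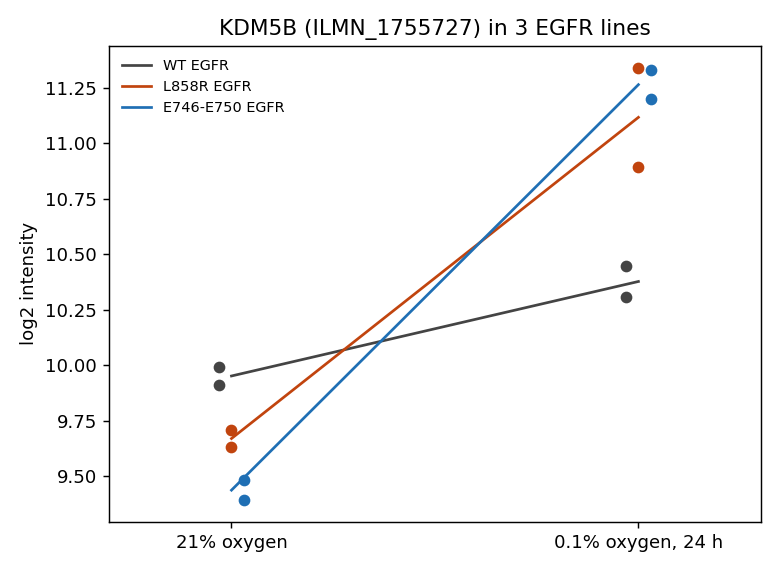
Log2 intensity of the KDM5B probe at 21% oxygen and after 24 h at 0.1% oxygen in the 3 EGFR lines; points are arrays and lines join the means of 2 arrays. The WT line goes from 9.91 and 9.99 to 10.45 and 10.31, and the E746-E750 line from the lowest aerobic values, 9.39 and 9.48, to 11.20 and 11.33.

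Among the other enzymes, KDM3B, the close relative of KDM3A, behaved differently between lines in its values, though not by the test of the difference. It read 8.91 and 8.59 in aerobic and 8.59 and 8.68 in hypoxic WT cells, which overlap. In L858R cells it went from 8.81 and 8.88 to 9.50 and 9.98, and in E746-E750 cells from 8.85 and 8.84 to 9.42 and 9.79. The change was -0.11 ± 0.200 in WT (95% interval -0.57 to 0.35, adjusted p = 0.834), 0.90 ± 0.200 in L858R (limma adjusted p = 0.0111) and 0.76 ± 0.200 in E746-E750 (adjusted p = 0.0224). The difference from the WT response was 1.01 for L858R (adjusted p = 0.0626) and 0.87 for E746-E750 (adjusted p = 0.101). Once the second L858R hypoxic array was left out, the differences were 0.76 (adjusted p = 0.0271) and 0.87 (adjusted p = 0.00616). Without that array the L858R change was 0.65, and the change over all lines, 0.51 with adjusted p = 0.0417, was no longer called (0.41, adjusted p = 0.0544). The call for KDM3B over all lines was kept in 11 of 24 alternatives, and leaving out any 1 of the 8 mutant arrays ended it. The E746-E750 call for KDM3B was lost without either E746-E750 aerobic array or without the second hypoxic one. The L858R call was lost with the arrays compared alone, with array weights and without either L858R aerobic array.

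Of the H3K36 demethylases, KDM2A rose in the mutant lines and KDM2B passed the test in none. KDM2A read 8.40 and 8.42 in aerobic and 9.15 and 8.96 in hypoxic WT cells. The L858R line went from 8.24 and 8.41 to 9.77 and 9.01, and in E746-E750 cells from 8.18 and 8.33 to 9.91 and 9.65. Every hypoxic array lay above every aerobic array; over all lines this held for KDM2A, KDM3A, KDM5B and JMJD6, 4 of the 11 probes, against 9.19% of all kept probes. The KDM2A change was 0.65 ± 0.234 in WT (adjusted p = 0.122), 1.06 ± 0.234 in L858R (limma adjusted p = 0.0104) and 1.52 ± 0.234 in E746-E750 (adjusted p = 0.0018). The 2 L858R hypoxic arrays lay apart, and the L858R change was 1.45 without the second and 0.68 without the first. The L858R call for KDM2A was kept in 21 of 25 alternatives and lost with median centring, with the arrays compared alone, with array weights and without the first L858R aerobic array. The WT value was called without either one of the L858R hypoxic arrays (adjusted p = 0.00197). The L858R response exceeded that of WT by 0.42 (adjusted p = 0.467), by 0.80 without the second L858R hypoxic array (adjusted p = 0.0121) and by 0.03 without the first. The E746-E750 response exceeded it by 0.88 (adjusted p = 0.154), which was called without either one of these arrays (adjusted p = 0.00288).

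KDM2B went the other way in its values. Its brighter probe read 9.46 and 9.76 in aerobic and 9.18 and 9.16 in hypoxic WT cells. In L858R cells it went from 9.64 and 9.54 to 8.68 and 9.68, and in E746-E750 cells from 9.46 and 9.75 to 9.20 and 9.43. The 2 L858R hypoxic arrays lay on either side of the aerobic pair. The changes were -0.44, -0.41 and -0.29, each ± 0.290 and none called, and -0.38 ± 0.156 over all lines (limma adjusted p = 0.0798). Without the second L858R hypoxic array the L858R change was -0.91 (adjusted p = 0.00131), and the WT change of -0.44 was called (adjusted p = 0.0299); without the first, the L858R change was 0.09. The second kept KDM2B probe was detected on 5 arrays, lay between 6.12 and 6.67 on all 12, and changed by -0.21, -0.10 and 0.01, none called. A further KDM2B probe, left out by the filter, was detected on 1 array.

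**Figure D3:**
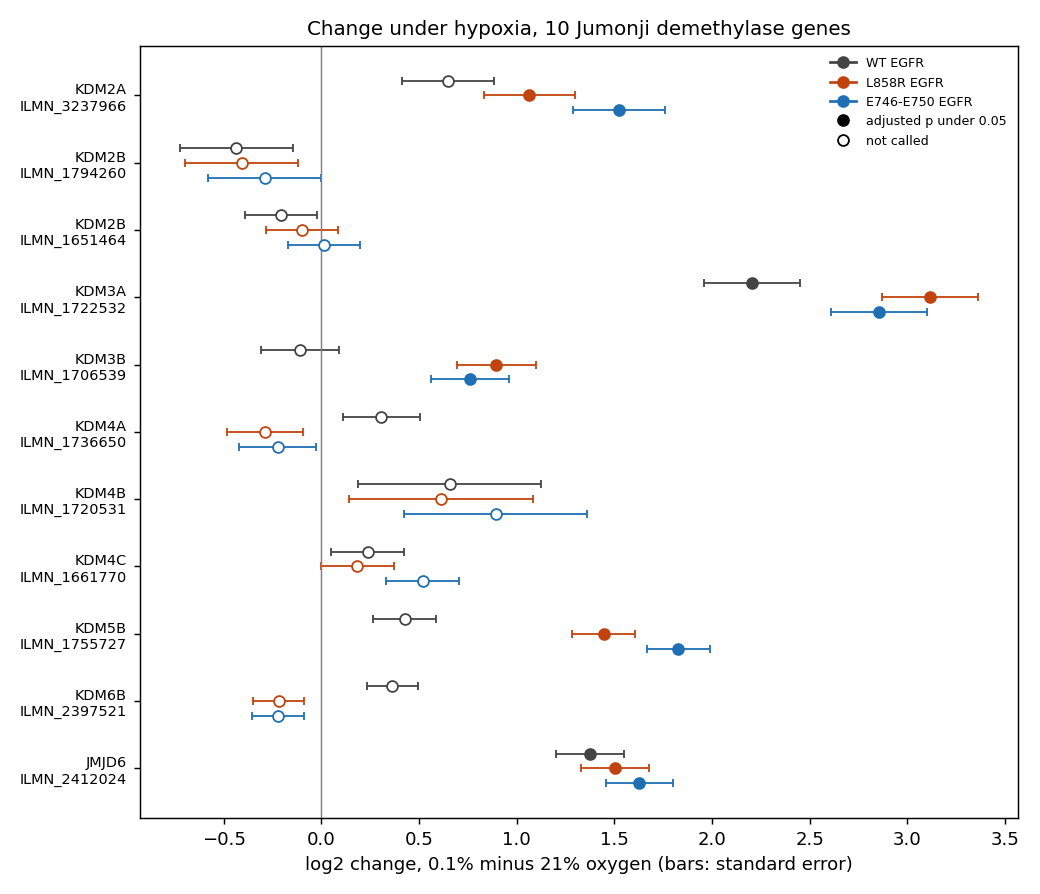
Change in log2 intensity under hypoxia (0.1% minus 21% oxygen) for the 11 kept probes in the WT, L858R and E746-E750 lines; bars are standard errors, and filled points passed the limma test at adjusted p under 0.05. KDM3A and JMJD6 are filled in all 3 lines, KDM2A, KDM3B and KDM5B in the mutant lines, and all filled points lie above 0.

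The KDM4 enzymes, which act on trimethylated H3K9 and H3K36, had dim probes and passed no test within a line. KDM4B read 6.64 and 6.30 in aerobic and 7.34 and 6.91 in hypoxic WT cells, and 6.47 and 6.52 against 7.53 and 7.24 in E746-E750 cells. In L858R cells it read 6.39 and 6.54 aerobic, and 7.97 on the first but 6.19, below detection, on the second hypoxic array. The 2 L858R hypoxic arrays therefore lay on either side of the aerobic pair. With all arrays the changes were 0.66 in WT, 0.61 in L858R and 0.89 in E746-E750, each ± 0.469 and none called, and 0.72 ± 0.248 over all lines (limma adjusted p = 0.0426). Without that array they were 0.66 (adjusted p = 0.00889), 1.50 (adjusted p = 0.000129) and 0.89 (adjusted p = 0.000755), and 0.96 over all lines (adjusted p = 0.000569). Without the first L858R hypoxic array instead, the WT and E746-E750 results are the same by construction and add no further check. The L858R value was then -0.27 and the value over all lines 0.51. The call for KDM4B over all lines was kept in 10 of 23 alternatives and lost in 13, of which 10 left out 1 array.

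KDM4C read 6.70 and 6.53 in aerobic and 6.92 and 6.78 in hypoxic WT cells. In L858R cells it went from 6.62 and 6.56 to 7.02 and 6.52, the latter below detection, and in E746-E750 cells from 6.55 and 6.48 to 6.87 and 7.19. Its changes were 0.24, 0.18 and 0.52, each ± 0.187, with limma adjusted p = 0.0713 in E746-E750, and 0.31 over all lines (adjusted p = 0.052). Without the second L858R hypoxic array the KDM4C change in L858R was 0.43, and without the first it was -0.06. Its sign in L858R thus depended on which hypoxic array was kept. The E746-E750 change was 0.52 in either case. KDM4A, another enzyme of this family, read 6.91 and 6.85 aerobic and 7.20 and 7.17 hypoxic in WT cells. It went from 6.70 and 6.94 to 6.82 and 6.25, the latter below detection, in L858R cells and from 7.0 and 6.77 to 6.75 and 6.56 in E746-E750 cells. Its changes were 0.31, -0.29 and -0.22, each ± 0.197 and none called, and its L858R and E746-E750 responses differed from that of WT by -0.60 (adjusted p = 0.224) and -0.53 (adjusted p = 0.304); the latter was called without either one of the L858R hypoxic arrays (adjusted p = 0.0328). The KDM4A values in L858R depended on which hypoxic array was kept: without the undetected second array the change was -0.0045 and the difference from WT -0.31 (adjusted p = 0.267), and without the first they were -0.57 (adjusted p = 0.00552) and -0.88 (adjusted p = 0.00247), both called.

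KDM6B, an H3K27 demethylase, was close to the detection level throughout and was detected on 3 of 12 arrays. Both WT hypoxic arrays detected it, at 6.67 and 6.56, and neither WT aerobic array did, at 6.28 and 6.22, which puts the hypoxic level at least 1.15-fold higher than the aerobic detection level (measured change 0.36 ± 0.131, limma adjusted p = 0.121). None of the mutant hypoxic arrays detected it, with values of 6.07 to 6.18, so the changes of -0.22 in both mutant lines have no measured hypoxic level behind them. KDM6B was detected on 1 of the 8 mutant arrays, an L858R aerobic one, so no size is given for a difference between the responses of the lines. With the authors' processed values, the L858R response of KDM6B was called lower than that of WT. KDM6B was the 1 member called in that comparison, on a probe detected on neither L858R hypoxic array. Without either one of the L858R hypoxic arrays the WT change was called (adjusted p = 0.0265).

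At 21% O2 none of the 11 probes passed the test between lines. For L858R minus WT no probe had an unadjusted p under 0.05, the differences ran from -0.28 for KDM5B to 0.10 for KDM3B, and 0.00624% of all kept probes were called. For E746-E750 minus WT the values ran from -0.51 to 0.16, with 0.243% of all kept probes called and 1 member, KDM5B, under an unadjusted p of 0.05. For KDM5B, E746-E750 minus WT was -0.51 ± 0.161 (95% interval -0.88 to -0.15, limma adjusted p = 0.365), and neither E746-E750 array reached either WT array. Such a gap, in either direction, was shown by 58% of all kept probes. This KDM5B difference was called in 7 of 26 alternatives, among them the 8 aerobic and WT hypoxic arrays alone (adjusted p = 0.00384), where 15.8% of all probes were called. For KDM3A the aerobic differences were 0.02 (95% interval -0.53 to 0.58) in L858R and 0.04 (-0.52 to 0.60) in E746-E750, so aerobic KDM3A in the mutant lines lay within 0.60 of WT by these intervals.

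The probes of other genes that tracked 3 of the members most closely were found by Pearson correlation over the 12 arrays, which share lines, oxygen levels and normalization. For KDM3A they were BHLHE40 (0.991), SEMA4B, ACSS2, TRPC1 and PTPRR (0.990 for the last). For JMJD6 they were SNRK (0.991), ART3, BHLHE40, MTMR11 and P4HA2 (0.987 for the last), so BHLHE40, a transcription repressor, appeared beside both. For KDM4B they were TNIP1 (0.988), LRP1, CRYBG2, LMF2 and ZNF654 (0.972 for the last), and KDM4B shared none of its 5 with KDM3A or JMJD6. The 12 arrays include the second L858R hypoxic array, where KDM4B read 6.19, below detection, against 7.97 on the first. This gap of 1.77 is larger than the KDM4B change in any line, and its part in these correlations was not tested.

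Other JmjC genes outside the 10 included members that rose and members that fell. Of 18 such genes, 14 had 19 kept probes, of which 1 rose and 3 fell in WT, 2 rose and 5 fell in L858R, and 2 rose and 5 fell in E746-E750, with median changes of -0.27, -0.21 and -0.03. Of all kept probes 6.76%, 15.3% and 14.1% were called down in these lines, beside the shares called up given above. KDM6A, the H3K27 demethylase related to KDM6B, rose by 1.29 in WT (limma adjusted p = 0.0211), 1.71 in L858R (adjusted p = 0.00275) and 1.96 in E746-E750 (adjusted p = 0.00132). RIOX1, a ribosomal oxygenase, changed by -1.98 in WT (adjusted p = 0.0028), -1.08 in L858R (adjusted p = 0.0192) and -1.19 in E746-E750 (adjusted p = 0.0128). KDM7A rose in L858R (1.58, adjusted p = 0.0134), with uncalled values of 0.52 in WT and 0.90 in E746-E750. Both JMJD8 probes fell in the mutant lines, with changes of -1.42 and -1.16 in L858R and of -1.52 and -1.39 in E746-E750, with uncalled values of -0.67 and -0.82 in WT.

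**Figure D4:**
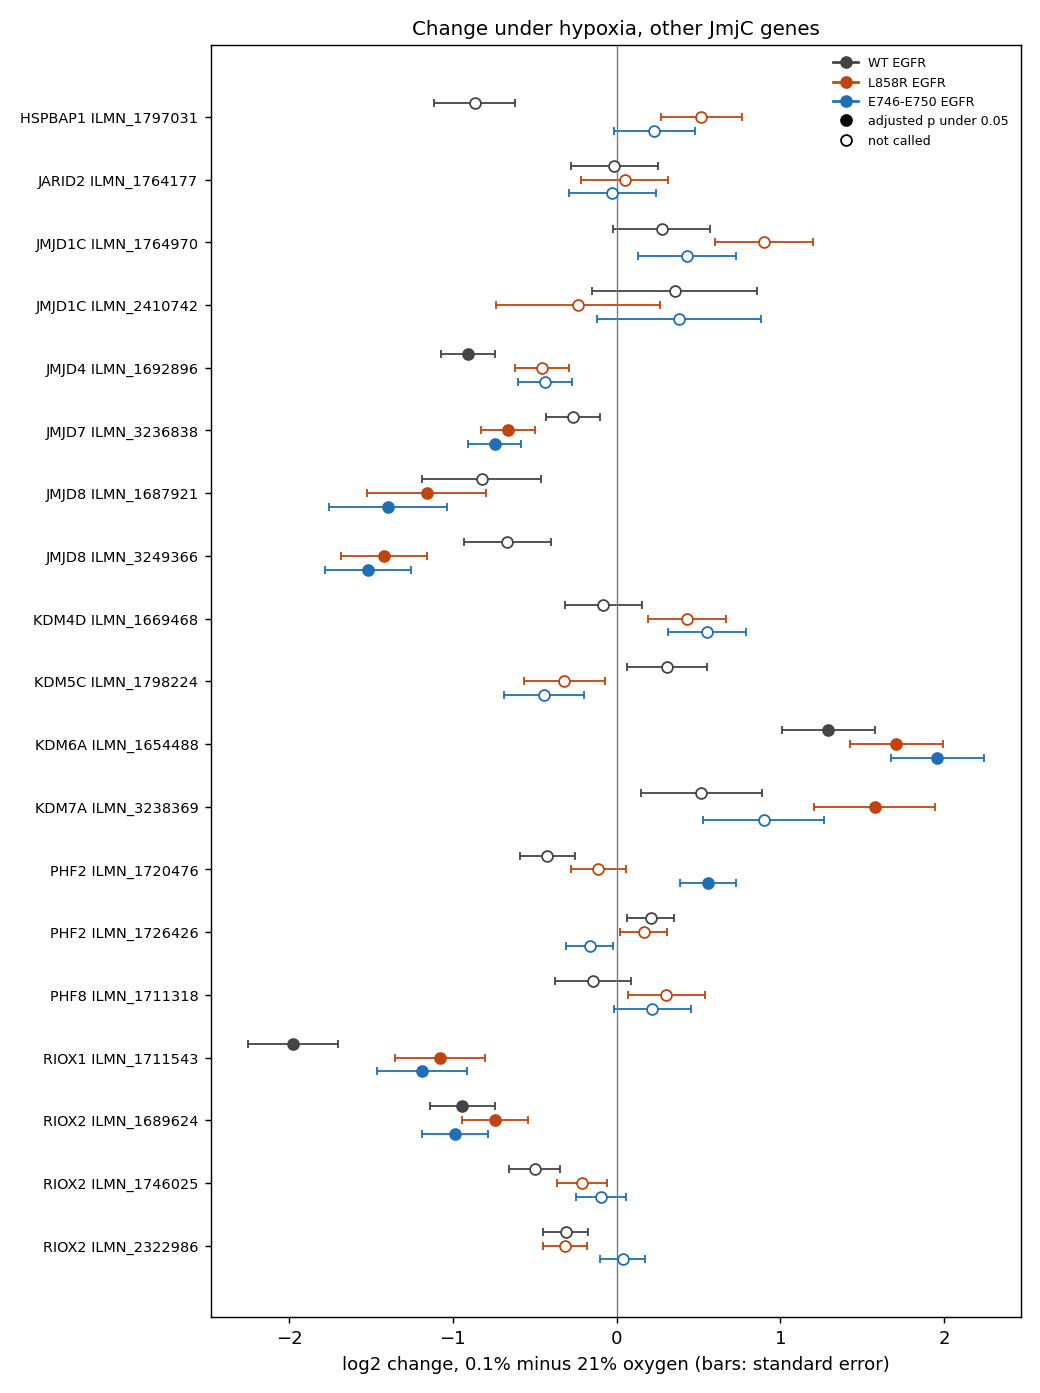
Change in log2 intensity under hypoxia for the 19 kept probes of 14 other JmjC genes in the 3 lines; bars are standard errors and filled points passed the limma test at adjusted p under 0.05. KDM6A lies above 0 and RIOX1 below 0 in all 3 lines, and the 2 probes of JMJD8 lie below 0 together.

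Other enzymes that place methyl marks on histones or remove them from histones or DNA gave the following counts. Of all kept probes, 4.98% in WT, 14.3% in L858R and 14.7% in E746-E750 were called up. The shares called down were 6.76%, 15.3% and 14.1%. With so few probes in each list, these counts are not read as results about the enzymes. None of the 7 kept probes of H3K9 methyltransferases was called in any line, nor was the 1 kept probe of the flavin-dependent demethylases, and no probe of the TET DNA oxygenases was kept. Of 11 probes of the H3K27 methyltransferase complex, 1 probe of EZH2, its catalytic subunit, rose in L858R (1.93, limma adjusted p = 0.00078) and E746-E750 (1.31, adjusted p = 0.00516). The other EZH2 probes changed by -0.45 and 0.05 in L858R and by -0.42 and 0.17 in E746-E750, none called, so the 3 probes of this gene disagreed. Of 13 probes of H3K4 methyltransferase complexes none was called in WT, 2 fell in L858R, both of KMT2C (the lower at -0.59), and 2 rose and 2 fell in E746-E750, where SETD1A changed by 1.16 and KMT2A by -0.60. Of 8 probes of H3K36 methyltransferases 1, 2 and 3 rose and none fell; SMYD2 rose in all 3 lines, by 1.05, 0.51 and 0.74, and 1 of the 2 NSD1 probes in L858R and E746-E750, by 0.85 and 0.75.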

How the data were processed

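RNA from 12 samples was read on Illumina bead arrays. The deposited raw table holds linear intensity of 47323 probes per array with no detection p-values, and the authors' processed table, deposited as log2 values, served as an alternative. The steps behind the latter are not given in the sources. Intensities were background corrected (normexp, offset 50), quantile normalized and fitted with limma 3.58.1 in R 4.3.3, with a mean for each of 6 groups (6 residual degrees of freedom) or, over all lines, line plus oxygen. Tests were two-sided. A probe was detected above percentile 99 of the array's mirrored noise peak, and 16023 probes of 11926 genes, detected on at least 2 arrays and with 1 gene, were kept. Of all probes 30113 had 1 gene, 8 several and 17202 none in the table used. No genome build was named for the probes, so no probe positions are given. The number of arrays limits precision. All member probes are named, and of other lists up to 4 members with the largest called change. Members, lists and tests were chosen with earlier results of these data known. Alternatives were other background corrections, normalizations, filters, models and each array left out; 2 more were chosen after seeing the data. The model was also run on simulated data with independent noise, 1 spread per probe over all 12 arrays and changes planted only in the WT hypoxic group. The simulation held no array that stands apart and no deviation shared between groups, so it does not test the model under those conditions.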

Additional observations from a re-analysis of the deposited data

Results flagged for a closer look

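The response of KDM5B to hypoxia differed between lines by the test of the difference itself. It was larger than in WT by 1.02 in L858R (limma adjusted p = 0.0277) and by 1.40 in E746-E750 (adjusted p = 0.00715), with the same WT arrays in both comparisons. It was 1 of 11 member probes called in each, where 9.5% and 9.7% of all kept probes were called, so the count of members is near the background. The L858R call was lost in 11 of 25 alternatives and the E746-E750 call in none of 25. Both L858R and both E746-E750 arrays were lower than both WT arrays when aerobic, as separate as 54% and 58% of all kept probes in either direction, and higher when hypoxic, where 51.7% and 71.7% of all kept probes were separate.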

How the results depend on the processing

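Over 88 member values, the 20 that were called had 495 alternative values: 443 were called again, 52 were not, and 0 turned direction. Of 1679 alternatives of uncalled values, 110 were called in the same direction and 2 in the other: KDM4B in the L858R response minus the WT response, -0.04 with all arrays, was 0.84 without L858R hypoxic replicate 2 (adjusted p = 0.032) and 0.84 with replicate 2 of each mutant hypoxic group left out (adjusted p = 0.0115), and -0.93 without L858R hypoxic replicate 1. KDM3A and JMJD6 in WT were called in all 26 alternatives, and KDM2A, KDM3A, KDM5B and JMJD6 in E746-E750 in all 25. In L858R, KDM3A and KDM5B were called in 24 of 25 and lost the call on the arrays compared alone. JMJD6 in L858R was called in 23 of 25 and lost the call there and with array weights.

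Counts of called members, of 11, changed with the model, as did the share of all kept probes called, given in brackets. Fitted on only the arrays compared, they were 8 in WT (39.2%), 0 in L858R (0%) and 1 for aerobic E746-E750 minus WT (20.1%). The same fit gave 0 for the L858R response (3.21%) and 5 for the E746-E750 response (34.9%). With array weights they were 7 in WT (40.2%), 2 in L858R (5.6%) and 1 and 1 for the aerobic differences (13.3% and 17.2%). Array weights gave 0 for the L858R response (3%) and 6 for the E746-E750 response (37%). With replicate 2 of each mutant hypoxic group left out they were 8 in each line (45%, 52.7% and 54.7%), 1 for aerobic E746-E750 (15.8%), 6 and 4 for the responses (37.9% and 38.3%), and on the 8 aerobic and WT hypoxic arrays alone they were 8 in WT (45%) and 1 for aerobic E746-E750 (15.8%). Median centring gave 1 for aerobic E746-E750 (3.87%) and 2 and 3 for the responses (11.5% and 23.7%), the authors' processed values gave 2 for the E746-E750 response (8.44%), and eBayes with trend and robust gave 2 for each response (8.19% and 8.75%). The cause of these shifts was not tested. Leaving out 1 array at a time, counts ran from 2 to 7 in WT (3.93% to 37.3%), 3 to 8 in L858R (14.1% to 70.1%), 4 to 7 in E746-E750 (14.7% to 58.4%), 4 to 7 over all lines (27.2% to 47.6%), 0 to 0 and 0 to 1 for the aerobic differences (0% to 4.91% and 0% to 9.01%), 0 to 6 for the L858R response (3.34% to 61.2%) and 1 to 6 for the E746-E750 response (3.84% to 39.4%). A group left with 1 array takes its spread from the other groups. The L858R count was 3 without L858R aerobic replicate 1 and 8 without L858R hypoxic replicate 2, and the WT count was 7 without either L858R hypoxic array.

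Over all kept probes, median centring moved the median change from -0.02 to -0.12 in WT, 0.03 to -0.11 in L858R and 0.06 to 0.18 in E746-E750, and the share of calls that were up from 42.4% to 23.4%, 48.3% to 38.0% and 51.0% to 69.0%. Same-numbered deviations from the group mean correlated between -0.189 and 0.195 for every pair of groups but the 2 mutant hypoxic groups. Between those 2 groups the correlation was 0.763, so their same-numbered arrays deviated together. With the replicate number as a block common to all groups the counts stayed at 2, 5, 5, 6, 0, 0, 1 and 1. Such a block cannot take up a deviation that only the 2 mutant hypoxic groups share. Dim probes (KDM4A, KDM4B, KDM4C, KDM6B and the second KDM2B probe) limit what can be said of small changes.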
